A study of Mus musculus with 6 samples.

Results

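The genome of activated mouse CD4+ T cells was examined here in blocks: each autosome was cut from its first base into windows of 1 Mb, and every window with at least 5 expressed protein-coding genes was kept. Of the 2120 autosomal windows that held the start of a protein-coding gene, 803 (37.9%) were kept, and a further 920 had 1 to 4 expressed genes. The windows were thus chosen by expression level: a gene counted as expressed at a mean of at least 1 CPM (reads scaled to the library's total) over all 6 libraries, and no difference between genotypes was a criterion. As a mean over both groups was used, a gene high in 1 genotype only could pass through that genotype. This applied to 268 genes of the kept windows, 190 under 1 CPM in CON and 78 under 1 CPM in CKO. With the minimum asked of each group, a requirement added after seeing the data, 770 of the windows would be kept and 33 would not. The kept windows held 8306 of 10362 expressed genes (80.2%). Each held 5 to 41 expressed genes (median 8) among 5 to 68 protein-coding genes in all (median 14).

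The libraries came from splenic T cells enriched as naive CD4+ cells and activated through CD3 and CD28 for 24 h. Control mice (CON, labelled WT, n = 3 libraries) were compared with mice whose loxP-flanked Satb1 alleles met a CD4-Cre transgene (CKO, labelled as Satb1 conditional knockout, n = 3). CD4-Cre is known to act from the thymus onwards, and how completely the alleles were deleted in these cells was not tested. Whether controls carried Cre or floxed alleles is not stated. Nor is it stated that each library is a different mouse, and p-values here reflect only the spread between libraries, which may be technical.

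The product of Satb1 attaches to AT-rich stretches of DNA and is known in thymocytes and T cells as an organiser of chromatin loops. Neighbouring genes in mammalian genomes often share regulatory elements, and families made by tandem duplication sit side by side in clusters. Blocks of neighbouring genes are therefore a usual unit in which changes after loss of a chromatin organiser are described.

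Satb1 itself had 711, 850 and 726 CPM in the CON libraries and 425, 545 and 461 CPM in the CKO libraries. The groups did not overlap, and Satb1 fell by 0.68 on the log2 scale (SE 0.09, adjusted p = 9.7e-05). Counts over the whole gene can include exons that Cre does not remove. Satb1 was the single expressed gene of its window, which was therefore not kept. Libraries held 14895389 to 20266626 reads on genes. The share of reads on no annotated gene was 9.18% to 9.50% in CON and 7.32% to 7.61% in CKO. Markers of other cells moved with genotype. The summed level of 9 red cell genes was 25.8 to 32.7 CPM in CON and 310 to 1861 CPM in CKO. For 15 myeloid genes it was 77.8 to 90.4 and 136 to 252 CPM, for 14 B cell genes 302 to 371 and 416 to 487 CPM, and for 6 NK cell genes 5.46 to 8.18 and 12.6 to 17.04 CPM. Of the tested markers, 7 of 8 red cell, 10 of 11 myeloid, 7 of 11 B cell and 2 of 2 NK cell genes were called higher in CKO, no listed gene of these was at 0 in all libraries, and none was called lower. The 7 defining T cell genes summed to 2487 to 2538 CPM in CON and 1565 to 1624 CPM in CKO. Without Cd4 and Cd28, which fell by 1.75 and 0.84 on the log2 scale, the other 5 summed to 1177 to 1217 and 1033 to 1060 CPM. In such bulk libraries, fewer cells of a type and less RNA per cell cannot be told apart.

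The promoters of a pair of windows are shown first, because each window is a cluster of related genes with a low median and several called lower, and most of their promoters hold a short motif. One window, chr7:104000001-105000000, holds the Trim5 and Trim30 genes, which encode RING-finger proteins of antiviral defence. The other, chr1:173000001-174000000, holds the Ifi200 genes, which encode nucleic acid sensors and nuclear proteins induced by interferon. Sequences run 5′ to 3′ on the strand of the gene, from 250 bases before to 50 bases after the start, from RefSeq on GRCm38.p6. Capitals mark each match, on either strand, to GAAA followed after any 2 bases by a second GAAA, the core of the interferon-stimulated response element.
Trim34a, chr7:104244207-104244506, plus strand: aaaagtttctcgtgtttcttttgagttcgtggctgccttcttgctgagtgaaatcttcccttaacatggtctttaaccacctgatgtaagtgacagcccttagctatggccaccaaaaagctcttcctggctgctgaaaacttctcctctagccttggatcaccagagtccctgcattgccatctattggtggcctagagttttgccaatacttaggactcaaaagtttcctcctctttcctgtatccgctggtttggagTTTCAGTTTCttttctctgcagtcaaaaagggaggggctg
Trim5, chr7:104288057-104288356, minus strand: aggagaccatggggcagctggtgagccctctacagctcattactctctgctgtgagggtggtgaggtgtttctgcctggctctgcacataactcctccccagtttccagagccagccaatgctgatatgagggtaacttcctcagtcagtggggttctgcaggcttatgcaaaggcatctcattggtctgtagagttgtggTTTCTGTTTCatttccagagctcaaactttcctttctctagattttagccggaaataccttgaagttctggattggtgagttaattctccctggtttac
Trim12c, chr7:104353300-104353599, minus strand: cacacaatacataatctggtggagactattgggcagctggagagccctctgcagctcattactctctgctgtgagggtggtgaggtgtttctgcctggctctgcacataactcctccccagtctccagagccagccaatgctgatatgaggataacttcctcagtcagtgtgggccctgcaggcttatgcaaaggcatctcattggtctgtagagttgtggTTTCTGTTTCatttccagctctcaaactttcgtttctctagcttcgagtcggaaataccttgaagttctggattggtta
Trim30a, chr7:104465144-104465443, minus strand: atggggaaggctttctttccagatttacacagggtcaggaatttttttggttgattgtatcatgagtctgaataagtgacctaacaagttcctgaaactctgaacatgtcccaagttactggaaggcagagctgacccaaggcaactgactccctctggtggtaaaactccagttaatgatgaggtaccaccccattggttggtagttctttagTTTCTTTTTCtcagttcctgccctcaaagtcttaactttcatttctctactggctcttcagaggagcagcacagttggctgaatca
Ifi214, chr1:173535908-173536207, minus strand: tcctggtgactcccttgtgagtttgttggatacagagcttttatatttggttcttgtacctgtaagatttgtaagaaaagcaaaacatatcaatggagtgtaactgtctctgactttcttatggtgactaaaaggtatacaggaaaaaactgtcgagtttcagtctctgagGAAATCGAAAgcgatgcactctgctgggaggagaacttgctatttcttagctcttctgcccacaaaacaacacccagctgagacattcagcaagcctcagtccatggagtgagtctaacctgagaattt
Ifi213, chr1:173599223-173599522, minus strand: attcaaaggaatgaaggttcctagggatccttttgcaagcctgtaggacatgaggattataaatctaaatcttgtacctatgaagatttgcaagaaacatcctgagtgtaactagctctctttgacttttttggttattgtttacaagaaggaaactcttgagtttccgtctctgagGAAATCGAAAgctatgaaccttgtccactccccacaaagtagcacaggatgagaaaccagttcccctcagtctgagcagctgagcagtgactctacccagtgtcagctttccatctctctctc
Ifi209, chr1:173630609-173630908, plus strand: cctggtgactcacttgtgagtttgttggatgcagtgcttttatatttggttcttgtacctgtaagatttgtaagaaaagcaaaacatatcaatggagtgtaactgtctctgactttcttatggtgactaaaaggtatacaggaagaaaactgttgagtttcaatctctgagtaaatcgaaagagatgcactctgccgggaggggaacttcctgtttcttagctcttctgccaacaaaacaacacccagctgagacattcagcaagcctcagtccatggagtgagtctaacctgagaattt

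The motif was found in the promoters of 6 of 6 expressed genes of the Trim window and of 6 of 9 in the Ifi200 window. In the latter, the RefSeq start used for Mndal (with the motif) lies 62304 bases and that for Aim2 (without it) 69725 bases from the GENCODE start. Ifi209 is printed because it lacks the motif and fell like its neighbours. Among the 6726 expressed genes of the kept windows whose promoter was matched by symbol (81.0%), 3.15% held the motif, as did 3.44% of all 32851 promoters of the table. Base composition also differed. The median AT content was 52.7% in the Trim and 57.7% in the Ifi200 promoters, beside 38.7% in those of expressed genes and 47.3% in all. Its part in the motif shares was not tested. The promoters within each cluster are not independent sequences. Trim5 and Trim12a share an identical run of 241 bases, and Trim30a and Trim30d one of 118 bases. The motif was searched after the values of both windows had been seen, and a match is a description of letters, not of a bound site.

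For each expressed gene the difference was taken as the mean log2 CPM of CKO minus that of CON, and the window median is the median of these differences. Most windows moved little. Their medians had a median of 0.01 and a standard deviation (SD) of 0.16, with quartiles at -0.07 and 0.08. A total of 500 windows (62.3%) lay within 0.1 of 0, and 427 (53.2%) were positive against 376 negative. The positive share was 49.7% without CON replicate 1 and 49.75% without CKO replicate 3, so the small excess of positive windows rests on single libraries. Beyond 0.25 there were 24 windows on the higher and 39 on the lower side, and beyond 0.5 only 4 and 5. The full range ran from -0.75 to 1.88.

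**Figure D1:**
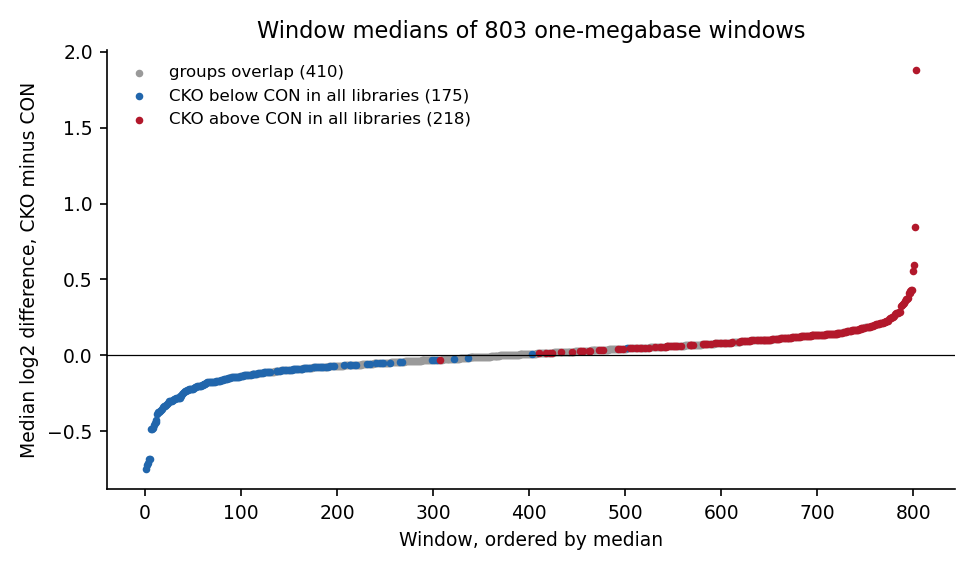
Medians of the 803 kept windows in ascending order, with each point 1 window and the vertical axis the median log2 difference of its expressed genes, CKO minus CON. Most points lie within 0.1 of 0, and a handful at each end stand apart, up to 1.88 for the window of the IL-1 and IL-18 receptor genes.

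A value was also given to each library, as the median over a window's genes of log2 CPM minus the CON mean. These window values had an SD over the 803 windows of 0.06, 0.04 and 0.04 in the CON libraries and of 0.17, 0.15 and 0.17 in the CKO libraries. All 3 CKO values lay above all 3 CON values in 218 windows and below them in 175, in all 48.9% of windows. The same separation was seen for 58.5% of single expressed genes (30.5% higher, 28.0% lower) and for 59.8% of the windows with 1 to 4 expressed genes (28.7% higher, 31.1% lower). With 3 against 3 libraries, the smallest two-sided p that an exact permutation test can give is 0.1. In 3 windows close to 0 the separated groups and the window median had opposite signs.

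Single genes changed in both directions within most windows. Of the 8304 tested genes in kept windows, 2081 were called higher and 1818 lower at an adjusted p under 0.05, against 21.6% higher and 20.7% lower (42.3% in all) over all genes tested. Called genes of both directions occurred in 595 windows (74.1%), and 12 windows had no called gene. Of the 633 windows with at least 3 called genes, 35 had all of them higher and 39 all lower. The median size of a gene's difference, regardless of sign, was 0.19.

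The window with the highest median, chr1:40000001-41000000, is the cluster of IL-1 receptor family genes. Window values were -0.43, 0.05 and 0.40 in CON and 1.55, 1.77 and 1.93 in CKO. The groups did not overlap, although the CON libraries were spread more widely here than in most windows. Il1r2, the decoy receptor for IL-1, rose from 1.56 ± 0.55 to 13.3 ± 1.55 CPM (SD, n = 3 each). Il18r1 and Il18rap, the 2 chains of the IL-18 receptor, had log2 fold changes of 1.24 (SE 0.17, adjusted p = 0.000164) and 1.96 (SE 0.21, adjusted p = 2.68e-05). Il1rl1, the receptor for IL-33 known from type 2 and regulatory T cells, rose by 2.03 (SE 0.34, adjusted p = 0.000608). The neighbour Il1rl2, a receptor for IL-36, went the other way and fell by 1.05 on the log2 scale (SE 0.12, adjusted p = 4.06e-05). Expression was low throughout, and all 5 genes were called. The window median is the difference of Il1rl1, which had under 1 CPM in CON and passed the minimum through CKO. Without it 4 expressed genes remain, with a median of 1.58, and the window would not be kept.

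In the next window, chr2:101000001-102000000, all 5 expressed genes were called higher. One of them, B230118H07Rik, had under 1 CPM in CON and passed the minimum through CKO. Without it 4 genes remain, with a median of 0.56, and the window would not be kept. Window values were 0.04, -0.08 and -0.07 in CON and 0.75, 0.77 and 1.02 in CKO. Traf6, an adaptor of IL-1 receptor and Toll-like receptor signalling, held 88.6% of the reads and rose by 0.24 (SE 0.04, adjusted p = 0.000854). The large median came from the low genes around it. Ldlrad3 rose by 1.08 (SE 0.21) and Prr5l, a partner of the mTORC2 complex, by 0.88 (SE 0.21). Commd9 was the least certain call (adjusted p = 0.0495).

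In chr3:14000001-15000000, window values were 0.15, -0.17 and 0.05 in CON and 0.61, 0.53 and 0.64 in CKO. Car2, carbonic anhydrase 2, rose from 1.56 ± 0.48 to 11.1 ± 3.74 CPM. E2f5, a transcription factor of cell cycle control, rose by 0.57 (SE 0.12, adjusted p = 0.00254), while Lrrcc1, a centrosome protein, fell by 0.55. Car2 is also abundant in red cells, whose marker sum was higher in every CKO library, and its part in this value was not tested. Car13 passed the expression minimum through CKO alone. Without it 4 genes remain, with a median of 0.36, and the window would not be kept. The call for Car13 (adjusted p = 0.0489) was lost under DESeq2 (adjusted p = 0.175) and when any library except CKO replicate 2 was left out.

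The pair Cd38 and Bst1, neighbouring genes for NAD-consuming surface enzymes, lies in chr5:43000001-44000000. Window values were 0.07, -0.02 and -0.17 in CON and 0.34, 0.56 and 0.77 in CKO. The window median, 0.56, is the difference of Cpeb2, which was also called higher (adjusted p = 0.00649). Cd38 had 0.34, 0.80 and 0.39 CPM in CON and 2.05, 1.20 and 2.29 CPM in CKO. Bst1 had 0.98, 0.07 and 0.26 CPM in CON and 2.05, 0.69 and 2.77 CPM in CKO. In CKO, Cd38 and Bst1 had the same order as the myeloid sum (203, 136 and 252 CPM), and its part in their values was not tested. Both Cd38 and Bst1 had under 1 CPM in CON and passed the minimum through CKO, and Gm7879 passed it through CON. Without these 3 genes 2 remain, with a median of 0.27, and the window would not be kept. Bst1 lost its call without CON replicate 2 or 3 and without CKO replicate 1 or 3 (adjusted p between 0.0839 and 0.129). Fbxl5, which overlaps Bst1 on the other strand, carried 77.3% of the window's reads and had a log2 fold change of -0.02 (SE 0.06). Summed over the window, the reads were not called (log2 fold change 0.15, adjusted p = 0.0578).

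Tigit, an inhibitory receptor of T cells, made chr16:43000001-44000000 the window with the largest rise in summed reads among those named here. Its CPM were 6.73, 7.44 and 7.70 in CON and 138, 157 and 145 in CKO, a log2 fold change of 4.34 (SE 0.07, adjusted p = 4.77e-11). Neighbours moved far less and not all one way. Zdhhc23, a palmitoyltransferase, rose by 0.73 (SE 0.10) and Qtrt2, a subunit of a tRNA-modifying enzyme, by 0.42 (SE 0.07), while Ccdc191 fell by 0.50 (SE 0.16). The Ccdc191 call was lost without CON replicate 3 and without CKO replicate 1 or 3. Window values were -0.01, -0.10 and 0.08 in CON and 0.47, 0.39 and 0.44 in CKO.

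Spock2, Vsir and Chst3 share chr10:60000001-61000000, where 5 of 7 expressed genes were called higher and none lower. Spock2, an extracellular matrix proteoglycan, rose by 2.77 (SE 0.19, adjusted p = 8.36e-07). Vsir, the checkpoint receptor VISTA, rose from 232 ± 32.3 to 318 ± 17.1 CPM. Psap, the precursor of lysosomal saposins, rose by 0.35 (SE 0.09). It had 230 to 249 CPM in CON and 319, 257 and 349 CPM in CKO. The myeloid sum had the same order in the CKO libraries (203, 136 and 252 CPM), and its part in the Psap value was not tested. Window values were -0.06, -0.12 and 0.04 in CON and 0.40, 0.39 and 0.53 in CKO.

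The seventh and eighth windows in rank were mixed. In chr2:70000001-71000000, Myo3b and Gad1 were near 0 in CON (0.06 to 0.39 and 0.13 to 0.32 CPM) and reached 3.09 to 4.10 and 1.63 to 3.26 CPM in CKO, so they passed the expression minimum through CKO alone. Without them 3 genes remain, with a median of -0.32, and the window would not be kept. Gorasp2, a Golgi stacking protein, rose by 0.43, and Tlk1 and Mettl8 fell by 0.32 and 0.54. Window values there were -0.04, -0.01 and 0.01 in CON and 0.45, 0.37 and 0.45 in CKO, while the summed reads changed by -0.03 (adjusted p = 0.437). In chr2:131000001-132000000, 6 of 11 expressed genes were called higher. Among them Cdc25b, a phosphatase that starts mitosis, rose by 0.74 (SE 0.08) and Rnf24 by 1.15 (SE 0.17). Rassf2 was called lower at -0.50 (SE 0.05). Window values were -0.01, 0.01 and 0.00 in CON and 0.24, 0.35 and 0.52 in CKO.

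**Figure D2:**
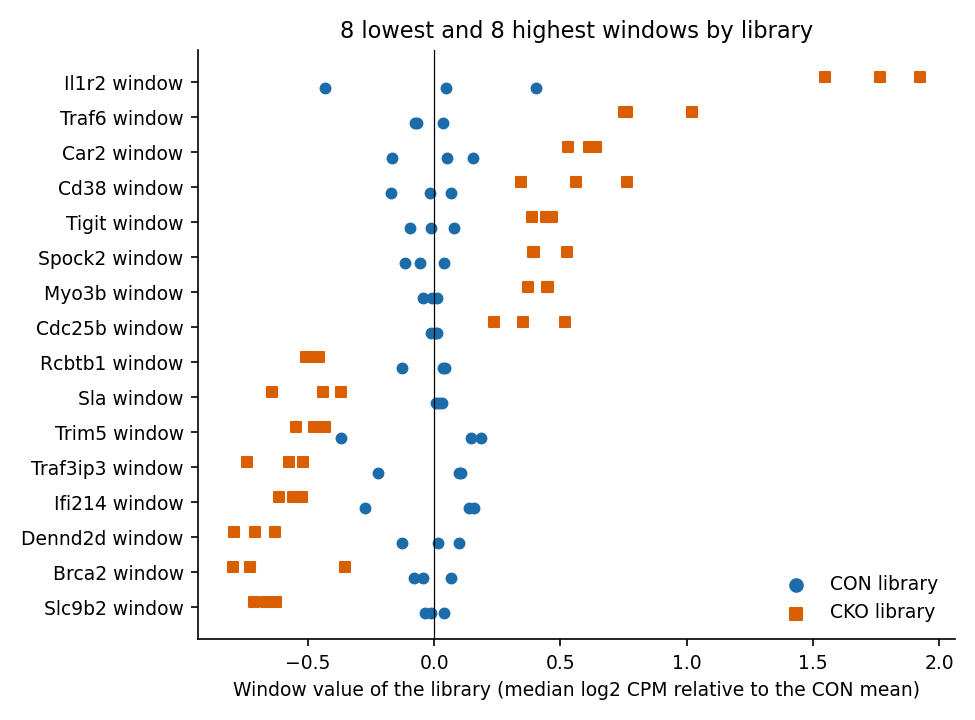
Window values by library for the 8 highest and 8 lowest of the 803 windows, each named by its gene with the smallest p in the direction of the median, with circles for the 3 CON and squares for the 3 CKO libraries and the horizontal axis in log2 units. The groups are apart in all 16 windows, which were chosen for their medians, and 1 CON library lies low in the Trim5 and Ifi214 windows.

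At the other end, chr3:135000001-136000000 had the lowest median, -0.75. Window values were 0.04, -0.01 and -0.03 in CON and -0.72, -0.63 and -0.67 in CKO. The groups were far apart and tight. Called lower were Slc9b2, a sodium-proton exchanger, at -2.29 (SE 0.21), Cenpe, a kinetochore motor, at -0.85 (SE 0.15), the zinc transporter Slc39a8 at -0.77 (SE 0.13), the lysosomal enzyme Manba at -0.75 (SE 0.10), and Cisd2. Nfkb1, the NF-kappaB subunit p105/p50, was called higher at 0.62 (SE 0.06) and held 66.5% of the reads. The summed reads of the window rose by 0.37 (adjusted p = 0.000147), opposite to its median. With 1 gene per symbol stem, the letters before the number, the median was -0.48.

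Brca2, a mediator of homologous recombination, led chr5:150000001-151000000, where all 5 expressed genes had negative differences. Window values were -0.05, 0.07 and -0.08 in CON and -0.73, -0.35 and -0.80 in CKO. Brca2 fell from 43.1 ± 3.78 to 22.7 ± 2.14 CPM, and N4bp2l1 and Fry fell by 0.74 (SE 0.10) and 0.71 (SE 0.18). Pds5b, a cohesin regulator and the most abundant gene of the window, had -0.10 (SE 0.04, adjusted p = 0.0902) and was not called.

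In chr3:106000001-107000000, 6 of 7 expressed genes were called lower and 1 higher. Window values were -0.13, 0.02 and 0.10 in CON and -0.79, -0.63 and -0.71 in CKO. Cd53, a tetraspanin of leukocytes, went from 706 ± 58.8 to 430 ± 25.2 CPM and held 68.7% of the reads. Dennd2d fell by 0.95 (SE 0.06, adjusted p = 2.98e-07) and Lrif1, a partner of heterochromatin proteins, by 0.73 (SE 0.07). The chitinase-like genes moved apart: Chil5 fell by 2.58 (SE 0.27) and Chil3, a product of macrophages and neutrophils, rose by 3.84 (SE 0.48). Both passed the expression minimum through 1 group only, and without them the window keeps 5 genes and a median of -0.71. The myeloid marker sum was also higher in all 3 CKO libraries, and its part in the Chil3 value was not tested.

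The Ifi200 window had values of -0.28, 0.16 and 0.14 in CON and of -0.52, -0.56 and -0.61 in CKO. CON replicate 1 lay between the other controls and the knockouts, without overlap. Of its 9 expressed genes, 5 were called lower and 1 higher. Ifi214 fell by 2.38 (SE 0.19, adjusted p = 3.1e-06), Ifi209 by 0.70 (SE 0.11) and Ifi213 by 0.70 (SE 0.12). Aim2, the sensor of cytosolic DNA that forms an inflammasome, rose by 0.51 (SE 0.07, adjusted p = 0.000178). Ifi203 had 0.08 (SE 0.10) and Mndal -0.15 (SE 0.08), both not called. Without CON replicate 1 the median was -0.81.

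The Trim window showed the same low control. Its values were -0.37, 0.19 and 0.15 in CON and -0.48, -0.43 and -0.55 in CKO, so CON replicate 1 and the nearest CKO library were close, without overlap. All 6 expressed genes had negative differences and 4 were called. Trim5 fell by 0.94 (SE 0.12, adjusted p = 0.000119), Trim12c by 0.64 (SE 0.13) and Trim12a by 0.55 (SE 0.13). Trim30a fell by 0.45 (SE 0.13, adjusted p = 0.0136), a call lost under DESeq2 (adjusted p = 0.067) and without CON replicate 2 or 3 or CKO replicate 3. Without CON replicate 1 the window median was -0.68. Reads with several alignments have a summary line of their own in the counts, 2.92% to 3.16% of a library. Near-identical genes of the Trim and Ifi200 clusters can lose or share such reads, so their levels are uncertain.

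In the other kept windows, 200 genes had a promoter with the motif, of which 54 (27.0%) were called higher and 43 (21.5%) lower. Of genes there without it, 24.9% and 21.6% were. The median of these motif genes was -0.05 in CON replicate 1 and 0.03 and 0.02 in the other controls, and 0.03, 0.02 and 0.01 in CKO. In chr3:142000001-143000000, the 4 guanylate-binding protein genes with the motif had a median of 0.48 with 3 of 4 positive. In chr19:34000001-35000000, 4 Ifit genes with the motif had a median of -0.20 with 3 of 4 negative. In chr5:120000001-121000000, 3 Oas genes had a median of -0.14.

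Genes of T cell signalling fell in a further pair of low windows. In chr1:193000001-194000000 all 6 expressed genes had negative differences, and window values were -0.22, 0.11 and 0.10 in CON and -0.74, -0.52 and -0.58 in CKO. Traf3ip3, an adaptor needed for T cell development and survival, fell from 123 ± 15.05 to 73.8 ± 0.82 CPM, and Lamb3 and Hsd11b1 were called lower too. Lamb3 and Hsd11b1 overlap on opposite strands, and the strand setting of the counting is not given in the sources used here. In chr15:66000001-67000000, Sla, the adaptor SLAP that dampens T cell receptor signalling, fell by 0.74 (SE 0.07, adjusted p = 1.2e-05). Sla lies inside Tg on the other strand, which had 0.31 (SE 0.17) and was not called. Window values were 0.02, 0.03 and 0.01 in CON and -0.64, -0.44 and -0.37 in CKO. In chr14:59000001-60000000, 5 of 6 genes were called lower. Phf11b fell by 1.84 (SE 0.14), Rcbtb1 by 0.72 (SE 0.05), and Setdb2, a relative of histone H3 lysine methyltransferases, by 0.45 (SE 0.10). Window values were -0.13, 0.04 and 0.04 in CON and -0.47, -0.46 and -0.51 in CKO.

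All expressed genes had differences of 1 sign in 20 windows (2.49%), 4 higher and 16 lower. Such agreement was found mainly where genes were few, where a single sign is also easiest to reach for genes that are not linked. The share that unlinked signs would give was not worked out. The 20 include 16 of the 161 windows with exactly 5 expressed genes (9.94%), and none had more than 7. Just outside the limit, 16.2% of the 160 windows with 4 expressed genes had a single sign. A single sign did not mean that all genes were called: of the 20, only the Traf6 and Mpeg1 windows had every gene called.

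Higher windows of this kind also included chr19:12000001-13000000 and chr8:27000001-28000000. In the first, window values were -0.07, 0.02 and -0.02 in CON and 0.45, 0.24 and 0.38 in CKO. Mpeg1, the macrophage perforin, rose by 2.64 (SE 0.37) and had 29.1, 12.6 and 39.4 CPM in CKO. It is one of the myeloid markers, whose sum followed the same order in those libraries. Dtx4 rose by 0.99 (SE 0.16), Zfp91 by 0.23 (SE 0.05) and Lpxn, leupaxin, by 0.35 (SE 0.10). The Lpxn call was lost without CON replicate 1 and without CKO replicate 1 or 3. In the second, Rab11fip1, a recycling endosome protein, rose by 0.46 (SE 0.06), Erlin2 by 0.28 (SE 0.07) and Plpbp by 0.25 (SE 0.06). Eif4ebp1, the mTORC1 target 4E-BP1, rose by 0.25 (SE 0.08), a call lost without CON replicate 1 or 2 and without CKO replicate 2 or 3. Window values were -0.04, -0.01 and 0.06 in CON and 0.24, 0.35 and 0.26 in CKO.

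The lower window with most genes, chr17:22000001-23000000, is a cluster of zinc finger genes, which encode DNA-binding proteins largely of the KRAB repressor type. All 7 expressed genes had negative differences and 4 were called. Window values were 0.02, 0.05 and -0.02 in CON and -0.77, -0.18 and -0.47 in CKO, so CKO replicate 2 lay nearest to the controls. CT030661.1 fell by 0.73 (SE 0.12, adjusted p = 0.000741) and Zfp994 by 0.68 (SE 0.15). Zfp944 and Zfp758 fell by 0.34 (SE 0.10) and 0.47 (SE 0.16), calls lost in 4 alternatives each. Other windows with 1 sign included chr16:15000001-16000000, with the DNA repair kinase gene Prkdc at -0.64 (SE 0.05) and the replication helicase gene Mcm4 at -0.42 (SE 0.04), and chr10:39000001-40000000, with the polymerase gene Rev3l at -0.62 (SE 0.07). These 3 were picked out after their values were seen.

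**Figure D3:**
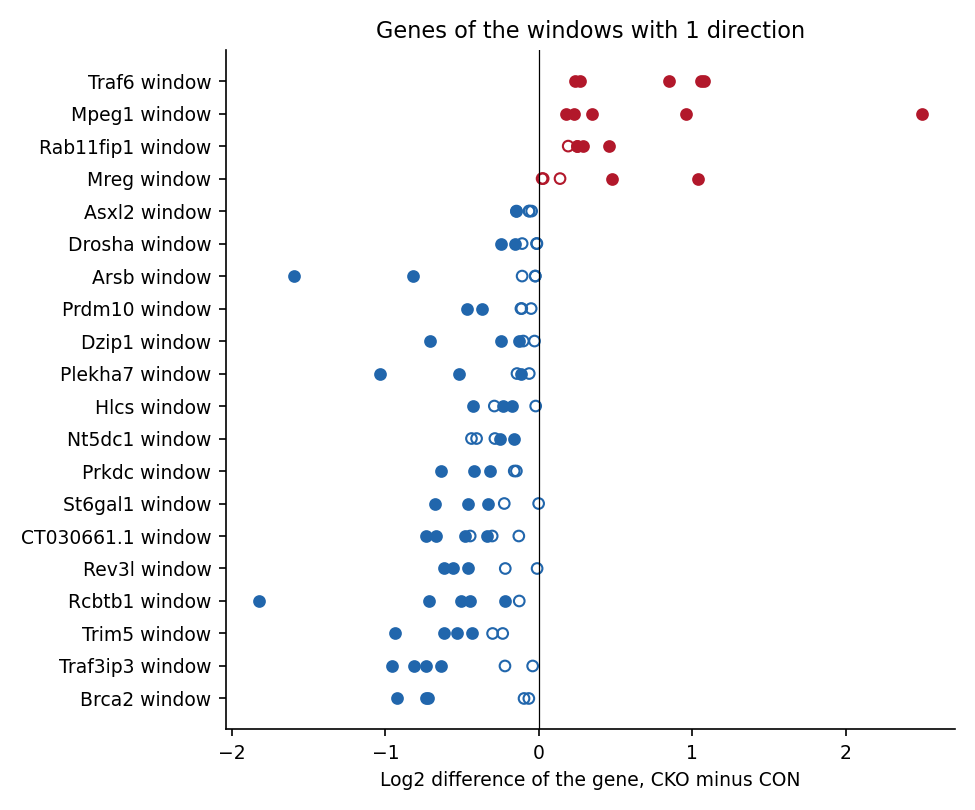
Log2 differences of the expressed genes in the 20 windows where all have the same sign, 1 row per window named as before, filled for genes called at an adjusted p under 0.05 and open for the others. The 4 higher windows are at the top, and only the rows of the Traf6 and Mpeg1 windows are filled throughout.

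Among the 309 windows with at least 10 expressed genes, the share of genes on the majority side had a median of 60.0%. At least 80% lay on 1 side in 20 of these, 14 higher and 6 lower. This listing was added after values were seen, and the number that unlinked signs would give was not worked out here either. The strongest was chr5:65000001-66000000, with 11 of 12 genes negative and 8 called lower. There, N4bp2, Rfc1, the large subunit of the clamp loader of replication, Rhoh, a GTPase of T cell receptor signalling, and Pds5a were all called lower. N4bp2 had 109, 105 and 108 CPM in CON and 68.4, 73.9 and 77.7 in CKO. In chr4:117000001-118000000, 11 of 13 were positive and 8 called higher, among them Eif2b3, a subunit of the translation factor eIF2B, and the polo-like kinase Plk3. In chr5:135000001-136000000, 15 of 17 were positive although the most abundant of the named genes, Baz1b, was called lower. The zinc finger window chr17:21000001-22000000, next to the 1 above, had 13 of 15 negative and 8 called lower. In it Zfp53 had 51.1, 55.6 and 53.1 CPM in CON and 19.6, 23.9 and 20.7 CPM in CKO (adjusted p = 2.54e-07).

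Zinc finger genes were listed by window as well. There were 29 windows with at least 3 expressed genes whose symbol begins with Zfp, and the median of those genes was negative in 25. Together they held 167 Zfp genes, of which 122 (73.1%) had a negative difference, beside 47.9% of all expressed genes of kept windows. Of the 167, 38 (22.8%) were called lower, close to the 20.7% over all genes tested, and 5 (2.99%) higher, beside 21.6%. The largest cluster, in chr13:67000001-68000000, had 16 of 21 Zfp genes negative and a median of -0.24. This family was picked after its values were seen and was not tested as a set, and near-identical zinc finger genes can lose or share reads.

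Other clusters of related genes were split from their neighbours. In chr11:83000001-84000000, which holds the CC chemokine cluster and the Schlafen cluster, the window median was 0.05. Window values were -0.07, 0.02 and 0.01 in CON and 0.02, 0.09 and 0.04 in CKO. All 5 expressed Ccl genes had positive differences with a median of 1.97, and 4 of 5 Slfn genes had negative differences with a median of -0.64. Ccl3 and Ccl4, chemokines that attract leukocytes, had log2 fold changes of 3.11 (SE 0.19) and 2.17 (SE 0.19). Slfn1 and Slfn3, regulators of T cell quiescence and growth, fell by 1.26 (SE 0.11) and 1.08 (SE 0.10). Slfn14, the positive Slfn gene, was not tested and had 0.00, 0.34 and 0.06 CPM in CON and 0.31, 2.97 and 3.74 CPM in CKO, where the red cell sum was also lowest in replicate 1. The 5 Ccl genes were each lowest in replicate 2 among the CKO libraries, as was the myeloid sum with 203, 136 and 252 CPM. Ccl9, with 7.97, 4.86 and 8.74 CPM, was also highest in replicate 3, like that sum. Ccl3, Ccl4, Ccl5 and Ccl6 were instead highest in replicate 1, Ccl3 with 95.9, 67.9 and 86.6 CPM. The part of these cells in the Ccl and Slfn14 values was not tested. Without Slfn14 the window median was 0.0038. The small median changed sign under 4 alternatives and carries no direction. The MHC window chr17:34000001-35000000 had 7 of 7 H2 genes positive (median 0.66), of which 4 were called higher. The window chr3:90000001-91000000 had 5 of 5 S100 genes positive (median 1.98), of which 3 were called higher. Both include markers of the B cell and myeloid lists, whose sums were higher in CKO, and that part was not tested. In chr6:48000001-49000000, 7 of 8 Gimap genes, GTPases of lymphocyte survival, were negative (median -0.38).

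The Cd4 window, chr6:124000001-125000000, had a positive median and a negative sum. Window values were 0.03, -0.04 and -0.01 in CON and 0.12, 0.13 and 0.08 in CKO, with 13 of 18 genes positive. Cd4 had 720, 680 and 700 CPM in CON and 210, 212 and 204 CPM in CKO. It fell by 1.75 (SE 0.04, adjusted p = 2.28e-10), and Tpi1, a glycolytic enzyme, fell by 0.80 (SE 0.07). Mlf2, Phb2 and Gpr162 were called higher. The summed reads fell by 0.37 (adjusted p = 6.88e-07). The window of the Th2 cytokine gene Il4, chr11:53000001-54000000, had a median of 0.11 and overlapping groups, and without CON replicate 1 it was -0.05. Il4 itself was below the expression minimum. The DNA repair gene Rad50 and Aff4 fell there by 0.32 each, and Uqcrq, of respiratory complex III, rose by 0.32.

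Reads were also summed over all genes of a window and tested across libraries with edgeR. Of the 803 kept windows, 246 (30.6%) were called higher and 221 (27.5%) lower, beside 28.4% and 29.0% over all 1742 windows tested. The sum and the median had the same sign in 362 of the 467 called windows (77.5%). The most abundant gene held a median of 40.9% of a window's reads. Changes were small, with a median size of 0.15 among called windows, and 2 windows at least doubled, both higher.

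Gene density went with the window median only weakly. Over the 803 windows, the Spearman correlation of the median with the number of protein-coding genes was 0.11 and the Pearson correlation 0.08. These points share the same 6 libraries, and no p is given. Without the 2 windows farthest from the median density they were 0.11 and 0.07. By library, the Spearman correlation of the window value with density was -0.11, 0.04 and 0.07 in CON and 0.11, 0.05 and 0.12 in CKO. By rank, CON replicate 1 thus went against density as much as 2 of the knockouts went with it. The Pearson values were -0.05, 0.02 and 0.04 in CON and 0.09, 0.05 and 0.09 in CKO. Each CON library is part of the CON mean that its values are taken from, so CON and CKO coefficients are not like for like. Without CON replicate 1 the Spearman correlation of the window median with density was 0.0675. Over the 8306 single genes, the Spearman correlation of the difference with density was 0.05, and with the gene's own length on the genome (span) -0.14.

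Divided by density, the 248 windows with 5 to 10 genes had a median of medians of -0.01 and 47.6% positive. For the 164 windows with 11 to 14 genes the values were 0.00 and 50.6%, for the 191 windows with 15 to 21 genes 0.02 and 55.5%, and for the 200 windows with 22 to 68 genes 0.02 and 60.0%. The SD of the medians fell from 0.22 in the sparsest bin to 0.15, 0.13 and 0.11 in the densest. The median number of expressed genes per window was 6, 7, 10 and 17 in these bins, and a median over more genes varies less. At gene level, 23.6% were called higher and 25.6% lower in the sparsest bin, and 26.2% higher and 19.0% lower in the densest. One-sign windows numbered 15, 3, 0 and 2 in the 4 bins, and a single sign is also harder to reach with more genes. The part of the number of expressed genes in the SDs and in these counts was not tested.

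**Figure D4:**
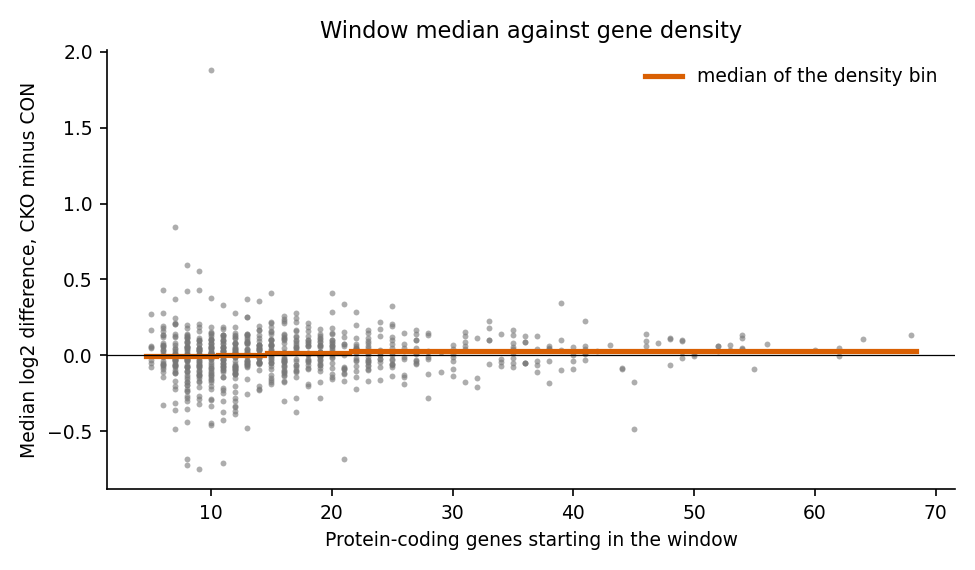
Window median (vertical axis, log2 difference CKO minus CON) against the number of protein-coding genes starting in the window, 1 point per window, with bars for the medians of 4 density bins. The bars climb from -0.01 to 0.02 while the points narrow around 0 to the right, where windows hold more expressed genes.

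For the median gene span, which itself had a Spearman correlation of -0.61 with density, the correlation with the window median was -0.14. It was close to 0 for promoter GC content (762 windows with a matched value) and 0.04 for mean expression. The 3 densest windows were chr7:45000001-46000000 with 68 genes, chr11:69000001-70000000 with 64 and chr2:25000001-26000000 with 62. Their medians were 0.13, 0.11 and -0.00, and called genes ran both ways in each, 13 higher and 4 lower, 13 and 7, and 5 and 4. In the first, Emp3 rose by 0.71 (SE 0.07) and Cd37, a tetraspanin, by 0.33 (SE 0.05). In the second, the translation factors Eif4a1 and Eif5a rose by 0.35 (SE 0.03) and 0.30 (SE 0.03) and the mitotic kinase Aurkb fell by 0.85 (SE 0.13). In the third, the tubulin gene Tubb4b rose by 0.57 (SE 0.04) and Abca2 fell by 0.29 (SE 0.06). The sparsest kept windows have 5 protein-coding genes, all expressed. Of these, chr2:59000001-60000000 had opposite calls side by side: Dapl1 fell by 3.08 (SE 0.12, adjusted p = 1.28e-08) and Pkp4, a junction protein, rose by 0.75 (SE 0.06). In chr2:39000001-40000000 Scai fell by 0.47 (SE 0.07), and in chr12:21000001-22000000 Ywhaq, a 14-3-3 protein, rose by 0.38 (SE 0.04) and Cpsf3 fell by 0.31 (SE 0.04).

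Agreement between neighbouring genes was short-ranged. Pairs of expressed genes in the same window had the same sign in 51.3% of 56304 pairs, against 50.1% between windows, and for called genes the shares were 53.6% and 50.2%. Window membership accounted for 3.46% of the variance of gene differences, and for 2.55% with 1 gene per symbol stem. Among called pairs that neither overlap nor share a stem, 64.2% of 123 pairs less than 10 kb apart had the same direction. The share was 59.3% at 10 to 25 kb, 57.1% at 50 to 100 kb, 53.1% at 100 to 250 kb and 51.5% at 500 to 1000 kb. For all expressed pairs of this kind, called or not, it was 57.2% under 10 kb and changed little beyond. It was 51.5% at 10 to 25 kb, 52.4% at 50 to 100 kb, 50.6% at 100 to 250 kb and 50.9% at 500 to 1000 kb. Pairs on different chromosomes stood at 50.1%. All expressed pairs of the same stem, called or not, had a same-sign share of 62.5% to 67.3% from 10 kb up to 2000 kb. That share was 51.6% in the 31 pairs under 10 kb and 56.5% in the 653 pairs at 2000 to 5000 kb. Pairs share genes and libraries, so these shares are descriptions and carry no test.

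**Figure D5:**
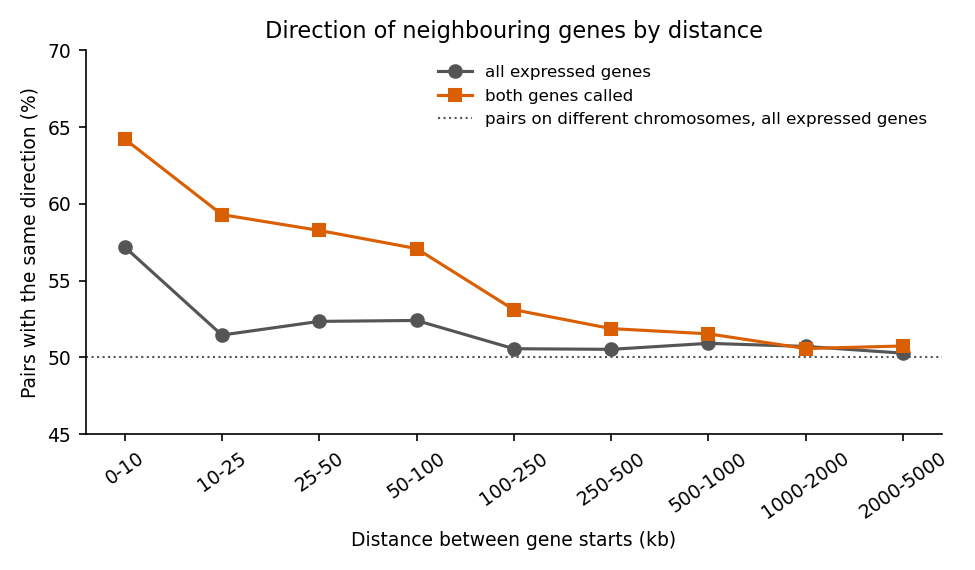
Share of gene pairs with the same direction (vertical axis, %) by distance between gene starts in kb, for all expressed genes and for pairs in which both genes were called, leaving out overlapping genes and genes of the same symbol stem. The called pairs decline from 64.2% under 10 kb to 50.8% at 2000 to 5000 kb, near the share for pairs on different chromosomes.

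Next to each other, kept windows showed little likeness. The Pearson correlation of medians between 438 pairs of adjacent windows was 0.02, and 49.1% of pairs had the same sign. Chromosome medians ran from -0.06 on chromosome 9, where 37.0% of 46 windows were positive, to 0.05 on chromosome 8, where 61.5% of 39 were positive. No chromosome had a median beyond 0.1. Leaving out the marker genes of other cell types gave 53.1% positive windows, 2.37% with 1 sign and a density correlation of 0.11. Each was close to the value with them. Only 3 red cell, 10 myeloid, 8 B cell and 2 NK cell markers lie in kept windows, which hold 8306 expressed genes. Other genes of those cells stayed in, so this comparison cannot show what part such cells had in the window values.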

How the data were processed

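RNA was sequenced from 3 CON and 3 CKO libraries. Per the submitters' processing notes, the authors used STAR 2.7.3a, HTSeq 0.12.4 and mm10 (GRCm38) to make the deposited raw read counts per gene. Neither annotation release nor use of strand is stated there. Summary lines (reads on no gene, ambiguous reads) stayed out of library sizes. Of 55401 genes, 55141 were placed with GENCODE M21, and genes were put in windows by their lowest coordinate.

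Counts were fitted in edgeR 4.0.16 (R 4.3.3) with filterByExpr, TMM scaling and the quasi-likelihood test, unblocked, with Benjamini-Hochberg adjustment over 13364 genes, and a call is an adjusted p under 0.05. Fold changes printed beside an SE come from this fit. Window medians use log2 CPM with a prior count of 2. CPM are TMM-scaled. Summed counts per window were fitted the same way over 1742 windows. The scripts were tested on simulated counts.

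Windows named are the 8 highest and 8 lowest medians, the 3 with most genes each way among those of 1 sign, the 3 densest and 3 sparsest (ties in genome order), and those with Cd4, Ccl3, Ccl5 or Il4. Genes named are called genes of smallest p, up to 4 along the median and 2 against it. Others were chosen after their values were seen. The members and lists were chosen with earlier results of these data known. Promoter GC replaced window GC, since no genome sequence was used. Alternatives were RLE and library-total scaling, no filter, DESeq2 1.42.0, other window sizes, offsets and minimums, and leaving out each library. One gene that the rule names is not reported here.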

Additional observations from a re-analysis of the deposited data

How the results depend on the processing

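Counts of called genes (2885 higher, 2766 lower) and of windows called by summed reads (495 and 505) stayed within 1.5 times under every alternative run. With the replicate number as a block they were 2861 and 2702 genes and 487 and 504 windows, and with DESeq2 2486 and 2248 genes and 487 and 494 windows. Samples with the same number did not deviate together (correlations 0.02, -0.01 and 0.03), so the numbers were not taken as pairs. A balanced block leaves window medians as they are. The share of positive medians (53.2%) was 51.4% with library totals, 55.4% in 0.5 Mb windows, 51.7% at a mean CPM of 5 and 56.2% with at least 8 expressed genes, and 49.7% to 53.8% with 1 library left out, so a majority of positive windows is not stable. The share of windows with 1 sign (2.49%) was 2.29% with windows shifted by 0.5 Mb, 3.52% in 0.5 Mb windows, 3.18% at a mean CPM of 5, 0% with at least 8 genes, 2.19% with 1 gene per symbol stem, and 2.24% to 2.74% with 1 library left out. The share of separated windows (48.9%) was 52.4% to 60.5% with 1 library left out, where fewer libraries must be apart. The density correlation (0.11) was 0.07 in 0.5 Mb windows (0.0651) and 0.0675 to 0.133 with 1 library left out, lowest without CON replicate 1. The chemokine window's median (0.05) reversed to -0.067 at a mean CPM of 5, -0.00060 with edgeR fold changes, -0.0056 with 1 gene per stem and -0.0045 without CKO replicate 2, in a range of -0.0045 to 0.065 with 1 library left out. The cause of these moves was not tested. Among alternatives chosen after seeing the data, placing genes by transcription start moved none of these 4 results beyond the spread used, and asking 1 CPM of each group gave 51.7% positive medians and 2.73% of windows with 1 sign. Of 1386 alternative values for named genes, 64 lost their call and none reversed. Depth limits genes near 1 CPM, 14.9 to 20.27 reads a library.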

Other observations

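In all, 65 groups of at least 3 expressed genes with the same symbol stem lay within a kept window, of which 8 had only positive and 12 only negative differences. Of the 12, 6 were Zfp groups. Among the 38 groups with at least 4 genes the lean was the other way, with 6 only positive and 2 only negative. The groups were listed after their values were seen. In chr17:35000001-36000000, next to the MHC class II genes, H2-D1, H2-Q4, H2-Q6 and H2-Q7, which encode MHC class I heavy chains, were 4 of 4 called higher with a median difference of 0.71. These genes are near-identical in parts and can lose or share reads, so their levels are uncertain. In chr11:119000001-120000000, 3 Cbx genes, which encode chromobox proteins of Polycomb and heterochromatin complexes, all had negative differences with a median of -0.70. In chr1:85000001-86000000, 3 genes of the Sp100 family, which encode proteins of nuclear bodies, all had negative differences with a median of -0.45. In chr19:10000001-11000000, 5 Tmem genes all had positive differences with a median of 0.33, although they share a name and not a family. Of these Tmem genes, 3 were called higher.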
